A study of Homo sapiens with 16 samples.

Results

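Tunicamycin (Tm) blocks the first step in building the sugar chain of N-linked glycoproteins in the endoplasmic reticulum (ER), so that newly made secretory proteins misfold. The ER sensors that answer to this change translation within minutes through phosphorylation of eIF2α, and they change transcription later, when genes for chaperones, folding enzymes and degradation factors are switched on. ISRIB is a small molecule that blocks the translational effect of phosphorylated eIF2α. The mRNA-Seq libraries of this series show how far the mRNA levels themselves had moved at 1 hr of Tm.

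The comparison took the 8 mRNA-Seq libraries out of 16 libraries in all, and the other 8 are Ribo-Seq libraries that count ribosome-protected fragments (RPFs) from the same lysates. HEK293T, human embryonic kidney cells that make the large T antigen of SV40, was left untreated or was given 1 µg/ml Tm, 200 nM ISRIB or both for 1 hr, with 2 replicates (a and b) of each of the 4 treatments. The 4 libraries with Tm (Tm a and b, Tm + ISRIB a and b) were set against the 4 without it (untreated a and b, ISRIB a and b), so that ISRIB was present in the same number of libraries on each side. All lysates were made after cycloheximide had been added to hold ribosomes on their mRNAs. Of 77614 UCSC transcripts in the files, 62378 carry a coding sequence length, and the 41304 of these with at least 10 counts in 4 or more libraries were tested. Isoforms of a gene share reads in these counts, and 8828 of the tested transcripts have counts equal in every library to those of another, so transcripts are not independent genes. Symbols were paired with 1946 of the tested transcripts, mostly genes of chromosomes 1 and 2 and the start of chromosome 3. The libraries hold 26972797 to 77215229 counts on the tested transcripts.

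Levels are given as CPM, a transcript's counts as parts of the TMM-scaled total of its library, so every change is relative to the other mRNAs of a library. The mean of the Tm groups was compared with the mean of the groups without Tm by the quasi-likelihood test of edgeR. RPFs were tested over the same contrast, so each RPF change averages the Tm effect without and with ISRIB. A transcript is called when its Benjamini-Hochberg adjusted p (the false discovery rate, FDR) is under 0.1.

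The changes in mRNA were small. Of the 41304 transcripts, 8564 were called (20.7%), of which 4090 rose (9.9%) and 4474 fell (10.8%), with a median log2 change of 0.24 among those that rose and -0.32 among those that fell. In all, 49 (0.119%) were called with a change of more than 2-fold, 3 up and 46 down, and these are sparsely counted transcripts with a median of 18.4 counts per library against 311 for all tested transcripts. One of the 49 has a symbol, NPIPL1, a member of a multicopy family whose value is uncertain because its copies share reads. It had 3.04, 2.61, 1.54 and 4.47 CPM in untreated a, untreated b, ISRIB a and ISRIB b and 1.16, 1.18, 1.10 and 2.04 in Tm a, Tm b, Tm + ISRIB a and Tm + ISRIB b, so that its groups overlap, and a log2 change of -1.05 (standard error 0.29, edgeR adjusted p = 0.0448). The share of rises among the calls depends on scaling. It was 47.8% with TMM, 31.8% with total counts alone (2663 up, 5706 down) and 58.2% with an offset for coding sequence length (4821 up and 3459 down, 11.7% and 8.37% of those tested, or 8280 and 20% in all). With 1 transcript per gene 2494 of 11696 were called (21.3%), and without the library ISRIB a 4608 (39.4%).

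These counts also depend on single libraries. Without untreated b or without Tm a no transcript was called by edgeR, although 9724 and 8554 had an unadjusted p under 0.05. Leaving out untreated a, Tm b or Tm + ISRIB a left 1942, 1729 and 1252 calls, and leaving out ISRIB b left 4743. Without ISRIB a the number went up to 15290 (37%), 8011 up (19.4%) and 7279 down (17.6%), with 246 (0.596%) beyond 2-fold. In each of these fits the lone library of a treatment is assumed to vary like the others. Of the 8564 calls, 8421 were also called in the same direction without ISRIB a, which is 98.3% of them and 55.1% of the larger set.

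ISRIB a stood apart from the other libraries without Tm. On the first principal component, which holds 41.2% of the variance, untreated a and b scored -29.2 and -28.0 and ISRIB b scored -40.5. The 4 Tm libraries scored from 8.41 to 29.7 and ISRIB a scored 11.6, inside their range. For each library in turn, the transcripts called without it were used to ask whether it lay nearer the mean of the Tm libraries or the mean of those without Tm. ISRIB a lay nearer the Tm mean for 75.5% of 15290 transcripts. ISRIB b did so for 13.2% of 4743 transcripts and untreated a for 2.21% of 1942, while the Tm libraries that could be placed, Tm b, Tm + ISRIB a and Tm + ISRIB b, did so for 87.3%, 97.6% and 74.3%. ISRIB a thus sat on the Tm side for most of its transcripts, against its label. Each percentage is taken over a different set of transcripts, so the libraries cannot be ranked by it. ISRIB replicates a and b also differed most of the 4 pairs, with a standard deviation of 0.26 for their log2 ratio against 0.14 to 0.15 in the other pairs. No label ties ISRIB a to a batch, and whether it shared one with the Tm libraries was not tested.

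**Figure D1:**
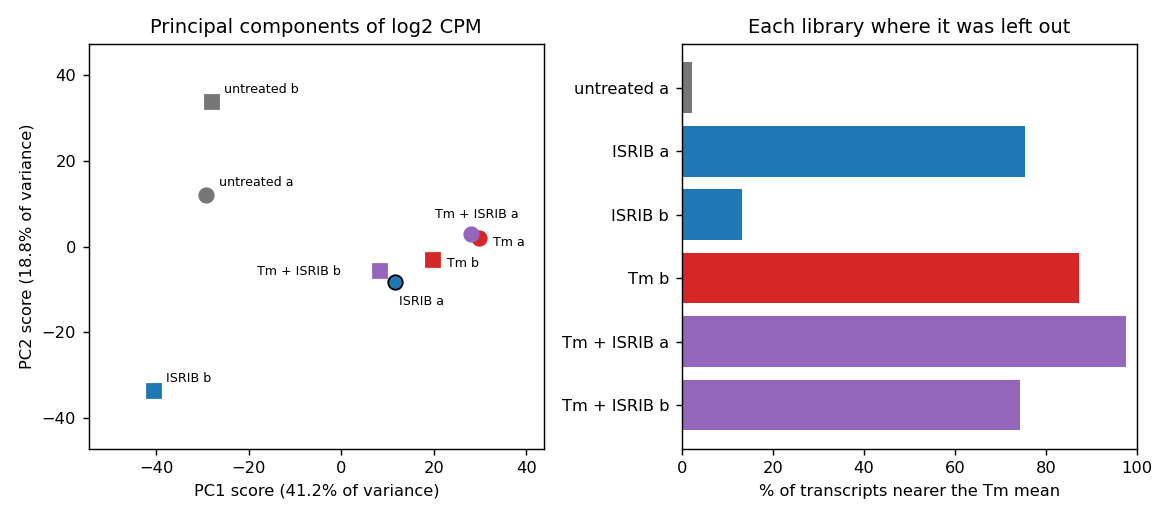
Left, scores of the 8 mRNA libraries on the first 2 principal components of log2 CPM, with ISRIB a outlined in black. Right, the percent of transcripts called without a library for which that library lay nearer the mean of the Tm libraries (untreated b and Tm a have no bar because no transcript was called without them), with ISRIB a at 75.5% and ISRIB b at 13.2%.

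The largest rises with a symbol, among called transcripts whose 2 groups of 4 libraries do not overlap, were led by ID2 and GNG5. Groups did not overlap for 15% of all tested transcripts (8.02% up, 6.93% down). Of the 1946 with a symbol, 451 were called (23.2%, and 43% without ISRIB a), 257 of them without overlap. Over all tested transcripts 4463 (10.8%) were both called and without overlap. ID2 encodes an inhibitor of basic helix-loop-helix transcription factors and is a short-lived, signal-responsive transcript (chr2:8678845-8684453, plus strand, on GRCh38). Its mRNA was 7.21 and 4.82 CPM in untreated a and b, 13.4 and 10.2 in ISRIB a and b, 13.9 and 13.4 in Tm a and b, and 15.4 and 15.0 in Tm + ISRIB a and b. ISRIB a equals the lowest Tm library to 3 digits, and the untreated pair is the lowest, and the groups do not overlap. The mean was 8.89 ± 3.69 CPM without Tm and 14.4 ± 0.931 with it (SD, n = 4 each), a log2 change of 0.77 (standard error 0.11, edgeR adjusted p = 0.0159).

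GNG5 encodes a γ subunit of heterotrimeric G proteins. It had 2.91 and 2.15 CPM in untreated a and b, 4.35 and 3.83 in ISRIB, 5.24 and 4.74 in Tm and 5.36 and 5.55 in Tm + ISRIB. Both ISRIB libraries lie between the untreated and the Tm libraries, and the log2 change was 0.69 (standard error 0.10, edgeR adjusted p = 0.0159). AGTRAP, which encodes a protein that binds the angiotensin II type 1 receptor, had a log2 change of 0.61 with no library without Tm above 3.17 CPM and no library with Tm below 3.68. QPCT, the enzyme that forms N-terminal pyroglutamate, had a log2 change of 0.55. The remaining transcripts of the 12 largest rises are a pair of histone H2B mRNAs and 6 transcripts of PPIAL4B, PPIAL4E, PPIAL4F and PPIAL4G. The PPIAL4 genes are near-identical copies of the cyclophilin A gene, and their rises of 0.52 to 0.54 are uncertain because reads can be split among the copies.

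Among the 12 largest falls AK097143, a transcript that the source data name by its cDNA, was the most abundant. It had 171 and 170 CPM in untreated a and b, 110 and 203 in ISRIB a and b, 79.2 and 90.9 in Tm and 84.9 and 106 in Tm + ISRIB. The groups do not overlap, but ISRIB a lies close to Tm + ISRIB b and far from ISRIB b, and the log2 change was -0.85 (standard error 0.15, edgeR adjusted p = 0.0159). Its RPFs rose by 0.95 (standard error 0.26, edgeR adjusted p = 0.0319). Its symbol most likely came from the study's lists of RPF changes in these libraries, so this rise is not independent evidence. AX748249 (-0.89) and AX747756 (-0.69) are named by their cDNAs as well, and their symbols most likely came from the same lists. Those lists were chosen on RPFs relative to mRNA. The mRNA falls of AK097143, AX748249 and AX747756, and their place among the largest falls, may thus be shaped by that choice. FAM189B fell by 0.70 on the log2 scale. BCL9, a coactivator of Wnt signalling through β-catenin, fell by 0.59, from 8.20 ± 1.67 to 5.39 ± 0.625 CPM (SD, n = 4 each).

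AGRN encodes the large basement membrane protein agrin (chr1:1020123-1056116, plus strand, on GRCh38). It had 16.4 and 15.0 CPM in untreated a and b, 12.9 and 17.4 in ISRIB a and b, 10.7 and 10.3 in Tm and 10.1 and 12.2 in Tm + ISRIB. ISRIB a is again the lowest of the libraries without Tm, and the log2 change was -0.51 (standard error 0.09, edgeR adjusted p = 0.0186).

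EIF5B, the GTPase that joins the ribosomal subunits at the start codon, differed from these in where ISRIB a lay. Its mRNA was 85.2 and 95.7 CPM in untreated a and b, 82.3 and 90.3 in ISRIB a and b, 62.5 and 73.4 in Tm and 66.5 and 50.8 in Tm + ISRIB. All 4 libraries without Tm lie above every Tm library, and ISRIB a is close to the other 3. The log2 change was -0.48 (standard error 0.08), and -0.51 without ISRIB a (edgeR adjusted p = 0.0167 and 0.000321). FMN2, a formin that nucleates actin filaments, and HCN2, a pacemaker channel, fell by 0.54 and 0.55. ZNF852 and ETV3L, which encode DNA-binding proteins, both fell by 0.55, and C1orf216 by 0.54. HCN2 lies on chromosome 19. Its symbol most likely came from the study's lists of RPF changes as well, so its fall may be shaped by that choice.

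**Figure D2:**
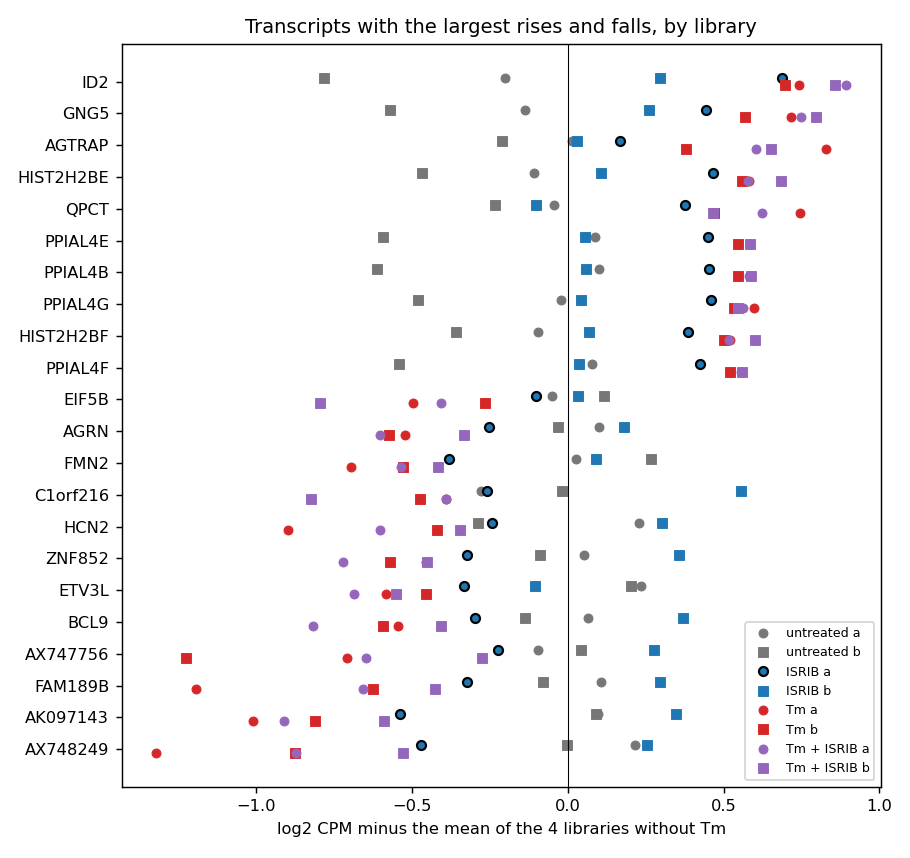
Log2 CPM of each library minus the mean of the 4 libraries without Tm, for the transcripts with the largest rises and falls (1 row per symbol, circles for replicate a and squares for replicate b, ISRIB a outlined in black). For most transcripts ISRIB a is the library without Tm that lies nearest the Tm libraries, and EIF5B has all 4 libraries without Tm close together.

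The replication-dependent histone mRNAs with a paired symbol were called up together. These mRNAs are made in S phase and end in a conserved stem-loop in place of a poly(A) tail, and the loop is bound by SLBP, which controls their processing and stability. All 12 tested transcripts of the list, from 9 genes, were called up, against 11.8% of all transcripts with a symbol, with a median log2 change of 0.34 against 0.01. The 12 transcripts hold 9 distinct sets of counts, because HIST2H2AA4, HIST2H4A and HIST2H3C each have copies with equal counts, and reads of such copies cannot be assigned to one gene. The count was 12 without ISRIB a, without ISRIB b and with the replicate letter as a block, and 11 with total counts, with the length offset and in DESeq2. It was 9 without untreated a, Tm b or Tm + ISRIB a, 11 without Tm + ISRIB b and 0 without untreated b or Tm a, where no transcript of any kind was called, while the median stayed between 0.30 and 0.42 in the 8 fits. In RPFs 0 of the 12 were called up and 3 were called down (HIST3H2A and both copies of HIST2H2AA4), with a median change of -0.06.

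The stem-loop was looked for in GENCODE v29 transcripts on GRCh38 on the transcribed strand as a left arm GGNNCT, a loop TTTN and a right arm AGNNCC without gaps, where N is any base. It is shown because this element is what the family shares beyond its proteins. It is present in 0.0866% of 83129 protein-coding transcripts and in each of the 7 histone genes whose annotated transcript runs past the stop codon. It stands in capitals below for 4 of them, 5′ to 3′, with 5 bases on each side.
HIST2H2BE, chr1:149886188-149886203, minus strand: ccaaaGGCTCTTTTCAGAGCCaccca
HIST2H2BF, chr1:149811885-149811900, minus strand: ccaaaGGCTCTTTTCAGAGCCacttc
HIST3H2A, chr1:228457369-228457384, minus strand: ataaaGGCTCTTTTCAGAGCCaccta
HIST2H4A, chr1:149833032-149833047, plus strand: ccaaaGGCCCTTTTTAGGGCCgacca
The first 3 share the same 16 bases, and HIST2H4A differs from them in both arms and the loop. A match is a description of the annotated sequence only. HIST2H2AB and HIST2H2AC were not searched past the stop codon, where their annotated transcripts end. The element begins 28 to 68 bases after the stop codon in the 7 genes. Some annotated transcripts run far past it, with 1801 bases after the coding sequence in HIST2H2BE and 1960 in HIST3H2BB. Counts over coding sequences cannot tell such longer forms from forms that end at the stem-loop.

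HIST2H2BE, which encodes a core histone H2B, had the largest change. It had 348 and 271 CPM in untreated a and b, 518 and 404 in ISRIB a and b, 560 and 552 in Tm, and 560 and 602 in Tm + ISRIB. Every Tm library is above every library without Tm, and ISRIB a is the nearest of those to the Tm libraries. The mean was 385 ± 104 without Tm and 569 ± 22.8 with it (SD, n = 4 each), a log2 change of 0.59 (standard error 0.09, edgeR adjusted p = 0.0159), while its RPFs changed by -0.01 (standard error 0.04).

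HIST3H2A, an H2A gene of a separate cluster (HIST3), rose without ISRIB a lying toward the Tm libraries. It had 47.3 and 43.1 CPM in untreated a and b, 44.1 and 40.3 in ISRIB a and b, 57.9 and 50.4 in Tm and 55.8 and 57.8 in Tm + ISRIB. Here the ISRIB libraries lie with the untreated ones, and the log2 change was 0.34 (standard error 0.06, edgeR adjusted p = 0.0159). The smallest change of the list was that of HIST2H2AB at 0.16, where the groups overlap and where the call was lost with the length offset (edgeR adjusted p = 0.0626 and 0.22). In 10 of the 12 transcripts ISRIB a was the highest of the 4 libraries without Tm, and what part it had in the rise was not tested.

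**Figure D3:**
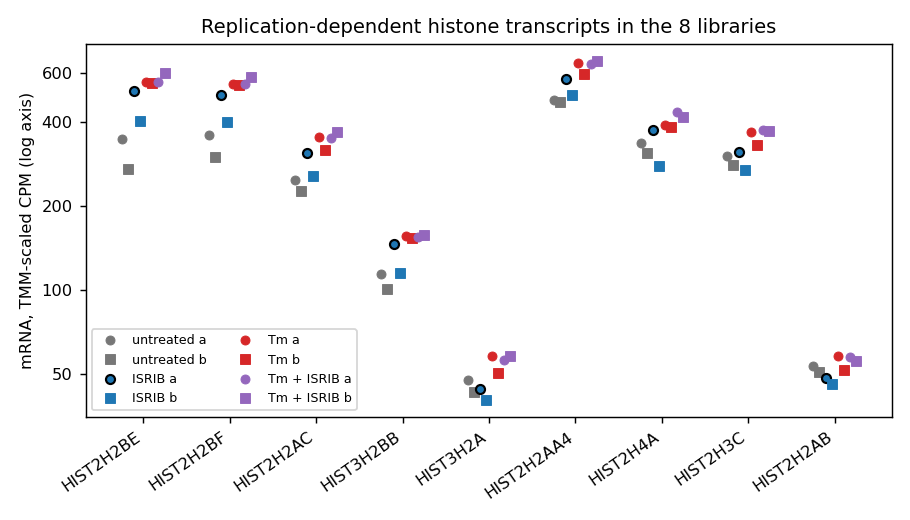
TMM-scaled CPM (log axis) of 9 replication-dependent histone genes in the 8 mRNA libraries, with circles for replicate a, squares for replicate b and ISRIB a outlined in black. The 4 Tm libraries of HIST2H2BE lie between 552 and 602 CPM, above the 271 to 518 CPM of the libraries without Tm, and HIST2H2AB is the gene whose groups overlap.

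For most cytosolic ribosomal proteins on the list mRNA was called up and RPFs were called down. The list was limited to genes with a paired symbol and does not hold the whole family. Of the 13 on the list, 9 were called up in mRNA and 0 down, with a median log2 change of 0.23, and all 13 were called down in RPFs with changes from -0.46 to -0.19. The background for transcripts with a symbol is 11.8% called up in mRNA and 3.95% called down (5.18% up) in RPFs. Without ISRIB a 12 of the 13 were called up in mRNA, against 25.4% of all with a symbol, and with the length offset 7 were, against 15.4% (7.55% were called down). It was 3 of the 13 without untreated a, Tm b or Tm + ISRIB a and 0 without untreated b or Tm a, with medians from 0.14 to 0.29 in the 8 fits. In 8 of the 13, ISRIB a was the highest library without Tm. Ribosomal protein mRNAs carry a 5′ terminal oligopyrimidine tract and their translation depends on mTOR activity. The RPF changes given here average the Tm effect without and with ISRIB. The paper reports that ISRIB reversed the drop in translation of mTOR targets under ER stress. Of 18 mitochondrial ribosomal proteins, 5 were called up and 0 down, led by MRPL30 and MRPS15 at 0.31 each, with a median of 0.12. Without ISRIB a that median was 0.18, against 0.03 for all transcripts with a symbol. Their RPF median was -0.04, and 1 of the 18, MRPL37 (0.23 in mRNA), was called down in RPFs at -0.23.

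The N-glycosylation list holds genes for sugar nucleotide supply and transport, the oligosaccharyltransferase, the translocon-associated complex and later processing of the sugar chains. Of its 24 tested members, 6 were called up and 0 down, with a median log2 change of 0.11, against 11.8% up and 11.4% down among all transcripts with a symbol. Without ISRIB a the counts were 12 up and 1 down, against 25.4% and 17.6%, and in DESeq2 4 up. They were 2, 2 and 1 up without untreated a, Tm b or Tm + ISRIB a, and 4 up without ISRIB b. They were 0 without untreated b or Tm a. KRTCAP2, a subunit of the oligosaccharyltransferase, had the largest change. It had 19.7 and 15.6 CPM in untreated a and b, 29.2 and 20.03 in ISRIB a and b, 28.9 and 28.96 in Tm, and 27.3 and 27.1 in Tm + ISRIB. ISRIB a is the highest of all 8 libraries, so the groups overlap, although the log2 change of 0.42 was called (edgeR adjusted p = 0.0324) and was 0.59 without ISRIB a.

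SSR2 encodes a subunit of the translocon-associated complex. It had 31.4 and 30.6 CPM in untreated a and b, 38.5 and 32.2 in ISRIB a and b, 42.6 and 41.1 in Tm and 41.9 and 38.9 in Tm + ISRIB, and its log2 change was 0.31 (edgeR adjusted p = 0.02). Its groups do not overlap, and ISRIB a lies just under Tm + ISRIB b. DDOST, also a subunit of the oligosaccharyltransferase, rose by 0.23, the galactosyltransferases B4GALT2 and B4GALT3 by 0.29 and 0.15, and GMPPA, a regulator of GDP-mannose synthesis, by 0.18. Of these, B4GALT2 is the one whose groups do not overlap. No called member of this list had a called change in RPFs.

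No member of the ER stress response list was called in mRNA. That list was limited to genes with a paired symbol. It leaves out many ER stress genes of other chromosomes and does not cover the response as a whole. Of its 22 genes 18 were tested, and 0 were called by edgeR (0 by DESeq2), against 23.2% of all transcripts with a symbol, with log2 changes from -0.26 to 0.26 and a median of 0.02. Without ISRIB a, 4 of the 18 were called up and 1 down, against 25.4% and 17.6% of all transcripts with a symbol. The 4 are ATF4, PDIA6, ERLEC1 and CREB3L4, and the 1 is EDEM1. EDEM1, which takes misfolded glycoproteins to degradation, was at -0.15, PDIA6, a disulfide isomerase, at 0.11, and EIF2AK3, which encodes the eIF2α kinase PERK, at 0.05. SESN2, a stress-induced regulator of mTOR, was at 0.00 (standard error 0.09). RPFs of PPP1R15B, the constitutive partner of the eIF2α phosphatase, rose by 0.36 with an mRNA change of -0.04. Those of IFRD1 rose by 0.83 with an mRNA change of -0.05. The symbol of IFRD1 most likely came from the study's lists of RPF changes in these libraries, so its rise is not independent evidence. ATF6, ATF3, TMCO1 and DDIT3 are listed but were not analysed here.

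ATF4, the transcription factor whose translation rises when eIF2α is phosphorylated, shows the contrast between the assays. Its mRNA was 236 and 260 CPM in untreated a and b, 257 and 225 in ISRIB a and b, 281 and 262 in Tm and 271 and 258 in Tm + ISRIB. The lowest Tm library lies below the highest untreated one. The mRNA change of 0.13 (standard error 0.06) was not called (edgeR adjusted p = 0.165), and without ISRIB a it was 0.19 and was called (0.00792). Its RPFs changed by 1.57 on the log2 scale over the same contrast (standard error 0.08, edgeR adjusted p = 9.44e-15). That value averages the Tm effect without and with ISRIB. The paper reports that ISRIB abolished the induction of known translational targets such as ATF4.

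ATF4 is one of 10 tested translational targets of the stress response, a list that the study chose on these libraries by their RPFs. The study describes these as changes in translational efficiency, without a matching change in mRNA. The direction of the RPFs is thus not independent evidence, and the mRNA values of the list may be shaped by the choice as well. In mRNA 1 was called up (PNRC2, a decapping cofactor, 0.33) and 3 down (UCP2, PTP4A1 and C7orf31), against 11.8% up and 11.4% down among all transcripts with a symbol. The median was -0.15 in mRNA and 0.87 in RPFs. UCP2, a mitochondrial carrier, had 3.78 and 2.82 CPM in untreated a and b, 1.97 and 4.69 in ISRIB a and b, 1.65 and 1.501 in Tm and 1.84 and 2.43 in Tm + ISRIB. The groups overlap because ISRIB a lies among the Tm libraries. The mRNA change of -0.83 (standard error 0.23, edgeR adjusted p = 0.0449) stands beside an RPF change of 1.26 (standard error 0.14, edgeR adjusted p = 3.45e-07). PTP4A1, a protein tyrosine phosphatase, changed by -0.47 in mRNA and 0.97 in RPFs. The RPF change of C7orf31 (0.78) was not called (edgeR adjusted p = 0.209). The mRNA values of the others not called were 0.17 for SAT1, -0.03 for PPP1R15A (GADD34), -0.15 for SLC35A4, -0.15 for BCL2L11 and -0.26 for ATF5, and all 5 RPF changes were called, from 0.65 to 1.56.

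Immediate early and short-lived transcripts, which respond to many signals within the hour, were mixed. Of 27 tested, 4 were called up and 1 down, with a median of 0.04, and the share called up is near the 11.8% of all transcripts with a symbol. Beside ID2, the rises were RGS2, a regulator of G protein signalling (0.49), ERRFI1, an inhibitor of the EGF receptor (0.38), and RHOB, a small GTPase (0.27). For each of these the 4 Tm libraries lie above all others. ERRFI1 had 4.46 and 4.45 CPM in untreated a and b, 5.92 and 4.87 in ISRIB, 6.63 and 6.15 in Tm and 6.6 and 6.33 in Tm + ISRIB. SERTAD2, a transcriptional coregulator, fell by 0.41.

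The counts of the remaining lists stand beside 11.8% called up and 11.4% called down among all transcripts with a symbol. Of 25 splicing factor transcripts 3 were called up and 4 down, which is near those shares. SNRPG, a core protein of the spliceosomal snRNPs, rose by 0.29. HNRNPA3, an RNA-binding protein of the hnRNP family, had 93.9 and 102 CPM in untreated a and b, 59.7 and 108 in ISRIB a and b, 55.2 and 53.7 in Tm and 58.4 and 60.8 in Tm + ISRIB. ISRIB a lies inside the range of the Tm libraries, so the groups overlap, and the change of -0.67 became -0.84 without it (edgeR adjusted p = 0.0206 and 2.4e-07). SRRM1, a splicing coactivator, fell by 0.49.

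In the proteasome list 3 of 7 were called up and 1 down, with PSMA5, a subunit of the core particle, at 0.28 and PSME4, a proteasome activator with a coding sequence of 1824 counted codons, at -0.33. With the length offset PSME4 was at -0.15 and was not called (edgeR adjusted p = 0.159). Of 33 zinc finger genes 1 was called up (ZNF22, 0.39) and 7 down, with a median of -0.08. With the length offset 4 were called up and 5 down, with a median of -0.04. The shares of all transcripts with a symbol were then 15.4% up and 7.55% down. ZNF22 lies on chromosome 10, so its symbol most likely came from the study's lists of RPF changes, which may shape its value. Of 13 respiratory chain and ATP synthase subunits 2 were called up (ATP5G3 and ATP5F1, 0.26 and 0.22) and SDHC was called down at -0.22. The median of this list was 0.09, and 0.17 without ISRIB a, against 0.01 and 0.03 for all transcripts with a symbol. Its median length was 123 codons, and with the length offset its median change was 0.03. Of 23 mitosis genes 2 were called in each direction, which is near the shares of all transcripts, with NUF2, a kinetochore protein, at 0.16 and SPC25, of the same complex, at -0.28. Of 10 amino acid synthesis, transport and charging genes 1 was called up (DARS, 0.16).

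**Figure D4:**
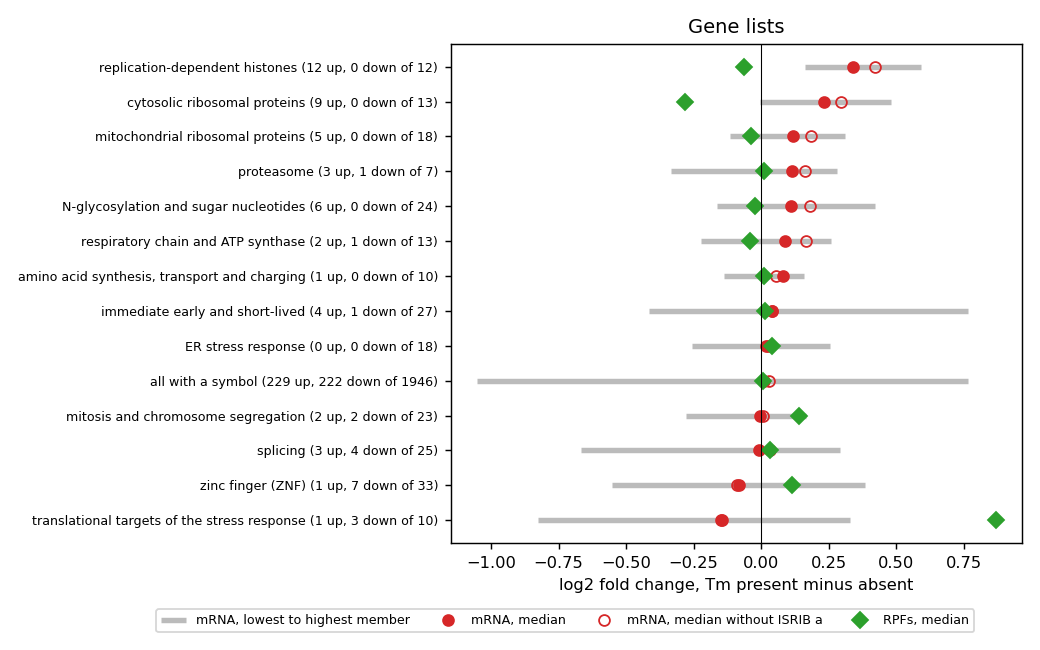
Log2 change with Tm present minus absent for each list, as the range of its members in mRNA (grey bars), the mRNA median over 8 libraries (filled red) and without ISRIB a (open red), and the RPF median (green diamonds). Histones and cytosolic ribosomal proteins have the highest mRNA medians, 0.34 and 0.23, and the translational targets have the highest RPF median, 0.87.

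The change in mRNA followed the length of the coding sequence. The median log2 change was 0.06 for the 7761 transcripts of under 200 counted codons, 0.03 for 200 to under 400, -0.01 for 400 to under 800, -0.08 for 800 to under 1600 and -0.17 for the 1190 of 1600 and more. In the shortest class 16.2% were called up and 4.66% down, and in the longest class 0.924% were called up and 41.3% down. Calls that rose had a median length of 288 codons and calls that fell one of 649, with 403 for all. RPFs ran the other way, with medians from -0.04 in the shortest to 0.11 in the longest class.

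Set against the mean of the untreated pair, the longest class stood at -0.22 and -0.15 in Tm a and b and at -0.21 and -0.15 in Tm + ISRIB a and b. ISRIB a stood at -0.11 and ISRIB b at 0.10. The 4 Tm libraries are thus all below the 4 without Tm, with ISRIB a in between, and the ISRIB pair, which had the same treatment, differ from each other by as much as the Tm libraries differ from the untreated ones. The length gradient between ISRIB a and b (-0.32 between the longest and shortest classes) was larger than that of the whole contrast (-0.24), and the contrast without ISRIB a gave -0.32. With 1 transcript per gene the contrast gave -0.27. The lengths of the lists differ likewise, with a median of 111 codons for the histones and 159 for the cytosolic ribosomal proteins against 477 for all with a symbol, and with the length offset their medians were 0.29 and 0.19. Which part of the length gradient comes from the treatment and which from library preparation was not tested.

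**Figure D5:**
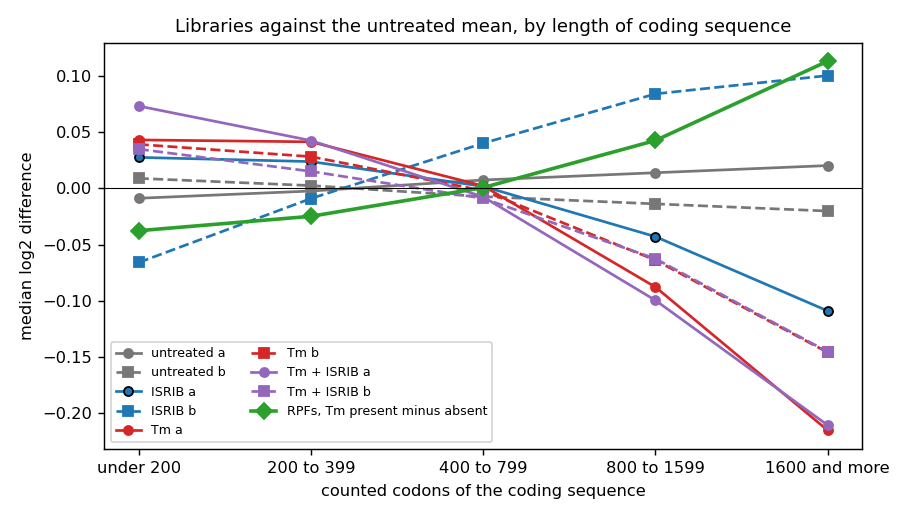
Median log2 CPM of each mRNA library minus the mean of the untreated pair in 5 classes of counted codons, with the median RPF change for Tm present minus absent as green diamonds. In the class of 1600 codons and more the Tm libraries lie between -0.22 and -0.15, ISRIB a at -0.11 and ISRIB b at 0.10, and the RPF median is 0.11.

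The change varied less with base composition. Of the 1946 transcripts with a symbol, 93.5% were matched to a GENCODE coding sequence 20 codons longer than the counted length, and the median change went from 0.03 where under 45% of bases were G or C to -0.03 where 60% or more were.

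The Tm effect was also tested within each ISRIB state. Tm against untreated gave 4779 calls (11.6%), 2658 up (6.44%) and 2121 down (5.14%). That count was 0 without untreated b, Tm a or Tm b, where 6216, 5680 and 6792 transcripts had an unadjusted p under 0.05, it was 1090 without untreated a, and it was 10031 without ISRIB a and 10034 without ISRIB b. Tm + ISRIB against ISRIB gave 0 calls in edgeR, with 5887 at an unadjusted p under 0.05 and 125 calls in DESeq2. Without ISRIB a it gave 10400 calls (25.2%), 5047 up and 5353 down, and without any other library 0. The difference between these effects, tested as an interaction, gave 0 calls in edgeR, with 3475 at an unadjusted p under 0.05 and 53 calls in DESeq2. It gave 316 calls without ISRIB a and 1400 without ISRIB b. ID2 rose by 1.17 without ISRIB and had a log2 change of 0.36 with it, where the interaction was not called (edgeR adjusted p = 0.333).

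RPFs from the same lysates gave a readout of the called mRNAs that the calls did not use. Over the same contrast 859 of 10816 transcripts were called in RPFs (7.94%), 401 up (3.71%) and 458 down (4.23%). That contrast averages the Tm effect without and with ISRIB. In RPFs Tm against untreated gave 1483 calls, Tm + ISRIB against ISRIB gave 142 and the interaction gave 765. The 1250 transcripts called up in mRNA and tested in RPFs had a median mRNA change of 0.24 and a median RPF change of -0.03, with 32 called up and 130 called down in RPFs (2.56% and 10.4%). The 1201 called down in mRNA had a median mRNA change of -0.31 and a median RPF change of 0.03, with 92 called up and 47 called down in RPFs (7.66% and 3.91%). Without ISRIB a the medians of RPFs for mRNAs called up and down were -0.02 and 0.03. In neither set did the median RPF change have the direction of the mRNA change.

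NES, the cell type marker chosen for HEK293T cells, had 0.63 to 0.94 CPM per 1000 codons, and of the 12 markers of other cells NEB alone was lower in every library. Among markers of other cells, those of blood (CXCR4, GYPC, CD101 and IKZF2) lay between 1.29 and 13.7 and those of muscle (ACTA1, ACTN2, RYR2 and NEB) between 0.22 and 13.8 CPM per 1000 codons. Those of fibroblasts (COL5A2, FN1, DDR2 and PDPN) lay between 0.91 and 20.8. Of these 12 markers CXCR4 was called up (0.47) and CD101, ACTN2 and RYR2 down (-0.40, -0.40 and -0.24), and none of the fibroblast markers was called. With the length offset RYR2 had a log2 change of 0.03, and RYR2 and CD101 were no longer called. What part these markers have in the results was not tested. All libraries come from the cultured line HEK293T, so no value here is a count of blood, muscle or fibroblast cells. Fewer cells and less RNA per cell cannot be told apart in these libraries.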

How the data were processed

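For each library the authors deposited a file of raw read counts by UCSC transcript, taken over coding sequences, beside a length in codons. These counts are neither normalized nor pooled. The submitters' processing notes name CASAVA 1.8, Bowtie 1.0.0, TopHat2 2.0.7 and 2.0.10 and the hg19 build. Per the labels, libraries followed a stranded TruSeq preparation. Reads of isoforms and near-identical copies were assigned in that counting and cannot be separated here, and PCR copies cannot be told from separate fragments.

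Transcripts with at least 10 counts in 4 or more of the 8 mRNA libraries were fitted with edgeR 4.0.16 (R 4.3.3, TMM, a mean for each of the 4 treatments, no replicate block). DESeq2 1.42.0 was an alternative. The common biological coefficient of variation was 6.61% in mRNA and 5.62% in RPFs. RPFs were joined by identifier without version and equal length, which gave 11696 tested mRNAs with a Ribo-Seq partner. Standard errors were taken as the size of the log2 change over the root of F. The fits were checked on counts drawn with known changes. For the length offset, each library's smooth trend on log2 length was added to its offset. Symbols come from the identifiers printed in the study's source data, of which 1928 were distinct among tested transcripts. Where the study's read count list had no symbol, its lists of genes that changed more than 2-fold in RPFs in these libraries supplied it. Positions come from GENCODE v29 (GRCh38), matched on symbol and on a coding length 20 codons above the counted one, and are not coordinates of the authors' files.

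The transcripts named are the 12 largest rises and 12 largest falls with a symbol, called and without overlap of the groups, the called members of 3 lists, the translational targets, and up to 3 examples of each other list by size. A further rule on transcripts called in every contrast named 0. Further histones, ER stress genes, markers and NPIPL1 were named after their values were seen. Members of the cytosolic ribosomal protein list are not given by name. The members and lists were chosen with earlier results of these data known. The replicates are biological, and p-values measure the spread between these libraries. The correlations of a minus b between treatments ran from -0.25 to 0.56 over 30743 transcripts. The highest was that of ISRIB with Tm + ISRIB and the 3 with the untreated pair were below 0, so the letters were not taken to pair the libraries.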

Additional observations from a re-analysis of the deposited data

Results flagged for a closer look

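Among the named transcripts and library scores, 222 groups of 4 libraries were checked for a library far from the other 3, and 12 were flagged, where chance flags about 1 in 20. With Tm, HIST2H2BE was highest in Tm + ISRIB b at 602 CPM (others 552 to 560), PSME4 was highest in Tm + ISRIB b at 91.0 CPM (others 74.0 to 75.6) and NUF2 was lowest there at 30.2 CPM (others 30.6 to 30.7). In Tm b, the lowest values were 22.0 CPM for PPIAL4E, 22.9 CPM for PPIAL4F and 332 CPM for both copies of HIST2H3C (others 369 to 376). EDEM3 was highest in Tm a at 31.1 CPM, and UGGT1 was lowest in Tm + ISRIB a at 70.3 CPM (others 73.3 to 73.6). Without Tm, PSMB4 was lowest in ISRIB b at 106 CPM (others 118), PPP1R15A was lowest in untreated a at 5.60 CPM (others 6.97 to 7.09) and ACTN2 was lowest in ISRIB a at 2.32 CPM (others 3.40 to 3.46).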

How the results depend on the processing

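Leaving out 1 library at a time moved the counts most. The ranges were 0 to 15290 for Tm present against absent, 0 to 246 for changes beyond 2-fold, 0 to 10034 for Tm against untreated, 0 to 10400 for Tm + ISRIB against ISRIB, 0 to 1400 for the interaction and 314 to 1215 for RPFs, and the longest minus the shortest length class ranged from -0.32 to -0.17. Of 76 called named transcripts, 76 kept their call without ISRIB a and 0 did without untreated b or without Tm a. In DESeq2's Wald test the counts were 4682, 8 beyond 2-fold, 2590, 125, 53 and 427 in that order. Without a filter 89 were beyond 2-fold, and the 2 contrasts with 0 calls gave 1887 and 375. With a filter at 50 counts 15 were beyond 2-fold, and with 2 groups and no ISRIB term 30. The length offset gave 70 interaction calls.

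With the replicate letter as a block, 10002 transcripts were called, and 166 in the interaction with the length offset as well. The block changed no call of the 76 named transcripts, and the letters were not taken to pair the libraries.

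Chosen after seeing the data, tests of 1 transcript per gene (fewer tested) gave 2494 calls, 16 beyond 2-fold and 1237 for Tm against untreated. With the length offset they gave 2407, 10 beyond 2-fold, 1643 for Tm against untreated and 16 for the interaction, and without ISRIB a 4608, 2963 for Tm against untreated, 3270 for Tm + ISRIB against ISRIB and 129 for the interaction. The length offset without ISRIB a gave 14971, 206 beyond 2-fold, 9934, 9479 and 283 in the order first given. RYR2 reversed with the length offset, to 0.0331 alone, 0.0357 with the block, 0.0701 without ISRIB a and 0.0347 with 1 transcript per gene, and UGGT1 (-0.05, not called) was called at 0.16 with the length offset without ISRIB a. The causes were not tested. Low counts limit precision, as the sparse transcripts beyond 2-fold show.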
